A study of Mus musculus with 4 samples.

Results

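The genes examined here encode the enzyme that makes itaconate, the enzymes of the citrate cycle, and subunits of the respiratory chain. A list of 44 genes was taken, and all 44 had at least 1 probe set that names a single gene, out of 18193 such genes on the arrays. Each gene was read from its brightest probe set over the 4 arrays. The cells were mouse macrophages grown from bone marrow in M-CSF, the macrophage growth factor, for 5 days. Jmjd3-/- cells carry a disrupted Kdm6b (Jmjd3), a histone demethylase gene, and wild-type (WT) cells served as their control. Each genotype was measured with lipopolysaccharide (LPS, a bacterial cell wall component, 100 ng/ml for 4 h) and unstimulated. The groups were thus LPS-treated Jmjd3-/-, unstimulated Jmjd3-/-, LPS-treated WT and unstimulated WT cells, with 1 array each. The sources used here do not state the mouse strain, sex or age, the part of Kdm6b that was deleted, or whether cells of several animals were pooled.

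Values are log2 intensities made by the authors with RMA, a method that corrects, normalises and summarises the probes of a probe set. They compare 1 gene between arrays and not 1 gene with another. A value of log2 6 was used as the floor for detection, and 32.1% to 34.5% of probe sets reached it on an array. Of the 44 genes, 42 reached the floor on all 4 arrays, Suclg2 on 3 of them, and Pcx on none, so 43 genes entered the comparisons. The brightest Kdm6b probe set read 10.82 and 9.82 in LPS-treated and unstimulated Jmjd3-/- cells, against 11.23 and 10.33 in LPS-treated and unstimulated WT cells. That probe set is of class _x_at, which is open to cross-hybridisation. A dimmer Kdm6b probe set, with a mean of 5.34, was higher in Jmjd3-/- cells by 0.85 with LPS and 0.64 unstimulated. The dimmest, with a mean of 3.39, differed by -1.28 with LPS and was equal unstimulated. These probe sets do not check the genotype labels, since their places relative to the deletion are unknown. All 9 measured macrophage markers, including Csf1r, Adgre1 and Cd68, reached the floor on every array. Their summed level was log2 15.33 and 15.32 in LPS-treated and unstimulated Jmjd3-/- cells, against 15.38 and 15.25 in LPS-treated and unstimulated WT cells. These values do not show that other cells were absent, and markers of other cells are described later.

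The citrate cycle oxidises acetyl groups in mitochondria and passes their electrons to the respiratory chain, whose complexes I, III and IV drive ATP synthesis. In macrophages activated by LPS, aconitate from the cycle is turned into itaconate by the enzyme ACOD1, and itaconate inhibits succinate dehydrogenase and limits inflammation. Citrate is also exported to the cytosol and split into acetyl-CoA for lipid synthesis. Activated mouse macrophages are known for citrate and succinate accumulation and for a shift of energy metabolism towards glycolysis.

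Acod1, the itaconate-producing enzyme gene, was near the floor in unstimulated Jmjd3-/- cells and bright on the other 3 arrays. It read 13.21 in LPS-treated and 6.39 in unstimulated Jmjd3-/- cells, against 13.32 in LPS-treated and 11.55 in unstimulated WT cells. The LPS-treated arrays of both genotypes lay 0.12 apart, while the unstimulated arrays lay 5.16 apart. The promoter of Acod1 is shown here beside that of Cycs, the cytochrome c gene, because these were the 2 members whose LPS differences were at least 2-fold apart between the genotypes. Each is the 250 bases before the RefSeq start in build GRCm38.p6, 5′ to 3′ on the gene's strand. Acod1 lies at chr14:103046762-103047011 on the plus strand and Cycs at chr6:50566570-50566819 on the minus strand.
Acod1: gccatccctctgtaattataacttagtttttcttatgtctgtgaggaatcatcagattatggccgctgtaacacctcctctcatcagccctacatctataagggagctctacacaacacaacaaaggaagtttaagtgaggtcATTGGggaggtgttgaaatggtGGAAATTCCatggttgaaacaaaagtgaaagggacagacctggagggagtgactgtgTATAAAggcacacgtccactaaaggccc
Cycs: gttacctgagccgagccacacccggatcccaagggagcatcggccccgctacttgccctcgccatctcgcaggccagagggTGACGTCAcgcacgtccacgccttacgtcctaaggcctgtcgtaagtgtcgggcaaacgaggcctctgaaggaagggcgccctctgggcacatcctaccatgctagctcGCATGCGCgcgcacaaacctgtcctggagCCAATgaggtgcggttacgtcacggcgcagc
Capitals mark matches, on either strand, to motifs whose letters were chosen with these sequences in view, and no matches overlap. In Acod1 they are CCAAT, on the opposite strand, at 107, the NF-kB-type GGAAATTCC at 85 and the TATA box letters TATAAA at 28 bases before the start. In Cycs they are the cyclic AMP response element TGACGTCA at 169, the NRF1 core GCGCATGC, on the opposite strand, at 60 and CCAAT at 31 bases before the start. NF-kB is a transcription factor activated by LPS, and NRF1 (nuclear respiratory factor) is known for binding respiratory chain gene promoters.

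These letters differ in how common they are. Over all 32851 RefSeq promoter windows of this length, GGAAATTCC was found in 0.286%, TATAAA in 12.4%, TGACGTCA in 1.55%, GCGCATGC in 2.26% and CCAAT in 33.8%. Of the 37 members with a promoter in the table, GGAAATTCC was found in Acod1 alone, and TATAAA in Acod1 and Ndufs7. TGACGTCA was found in Cycs, Mdh2, Ndufa10, Ogdh and Uqcrfs1, and GCGCATGC in Cycs, Ogdh and Sdhb. CCAAT was found in 17 of the 37. The GC box letters GGGCGG, searched on the same windows, were in 21 of the 37 members (56.8%) and in 32.7% of all windows, and in neither of the printed promoters. The core of the interferon-stimulated response element (ISRE) was found in Ndufa9, Ndufs3 and Suclg2, and in 2.98% of all windows. Suclg2, described later, also held CCAAT and GGGCGG. A member was counted once if any of its windows held the letters, while the share of all windows counts every window. The shares of members and of windows are therefore not directly comparable. A match describes the letters and does not show binding.

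**Figure D1:**
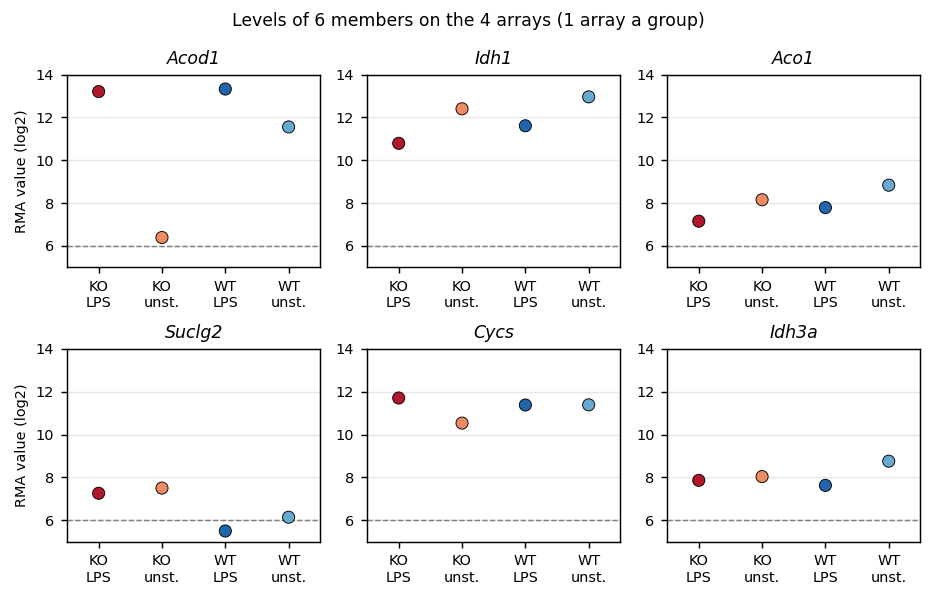
Levels of 6 members (log2 RMA value, vertical axis) on the 4 arrays, with 1 point for each array and a dashed line at the floor of log2 6. Acod1 reads 6.39 in unstimulated Jmjd3-/- cells (KO) and at least 11.55 on the other 3 arrays, and Suclg2 is higher on both KO arrays than on both WT arrays.

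The difference of Acod1 between LPS-treated and unstimulated cells was 6.81 on the log2 scale in Jmjd3-/- cells, or 112-fold, against 1.77, or 3.41-fold, in WT cells. In Jmjd3-/- cells it was the 9th highest of 9122 genes at or above the floor, and in WT cells the 416th highest of 8627. The LPS difference was thus larger in Jmjd3-/- cells by 5.04, the 4th largest such gap in either direction among 9385 genes. Between unstimulated cells Acod1 was 35.8-fold lower in Jmjd3-/- than in WT, the 11th lowest difference of 9045 genes. These are differences between single arrays and have no test. Differences of RNA per cell and of the number of cells of a type cannot be told apart in these bulk samples.

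Other genes tied to itaconate and succinate signalling were read beside it. Il1b, the interleukin-1 beta gene, read 12.91 in LPS-treated and 6.72 in unstimulated Jmjd3-/- cells, against 13.63 in LPS-treated and 10.09 in unstimulated WT cells. Like Acod1 it was lowest on the unstimulated Jmjd3-/- array.  Il6, the interleukin-6 gene, was under the floor in both unstimulated groups, at 4.10 in Jmjd3-/- and 4.80 in WT cells. A high unstimulated WT value was therefore seen for Acod1 and Il1b but not for Il6.

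To test the LPS effect shared by both genotypes, limma was fitted to 9385 genes with additive terms for genotype and LPS. The 4 arrays leave 1 residual degree of freedom, which is the disagreement between the LPS differences of both genotypes. No label says that the arrays came from separate animals or cultures. The p-values rest on that disagreement, which limma combines with its level over the other genes, weighted as 3.84 degrees of freedom. They do not measure variation between replicates. Among all genes 11.2% rose and 18.8% fell at a Benjamini-Hochberg (BH) adjusted p below 0.05, so of the genes called 37.3% were higher. This split was 45.9% higher after quantile normalisation and 47.7% after centring each array on its median. The median of all genes was -0.22 in the deposited values and -0.10 under either scaling, so shared differences of the members are also given relative to it.

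With LPS, 1 of the 43 members rose (2.33%), 8 fell (18.6%) and 34 did not pass. The share that fell was near that of all genes. Acod1 rose by 4.29 ± 1.16 (SE; limma, BH adjusted p = 0.0491, both genotypes higher). This SE compares with a median of 0.18 over the members, and the call was kept under 2 of 9 alternative settings, with adjusted p-values from 0.0449 to 0.225. The median over the 43 members was -0.31, against -0.22 over all genes, and 36 of the 43 members (83.7%) lay below 0, against 63.9% of all genes. Relative to the median of all genes, 27 of 43 members were lower in the deposited values and after centring, and 33 after quantile normalisation.

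**Figure D2:**
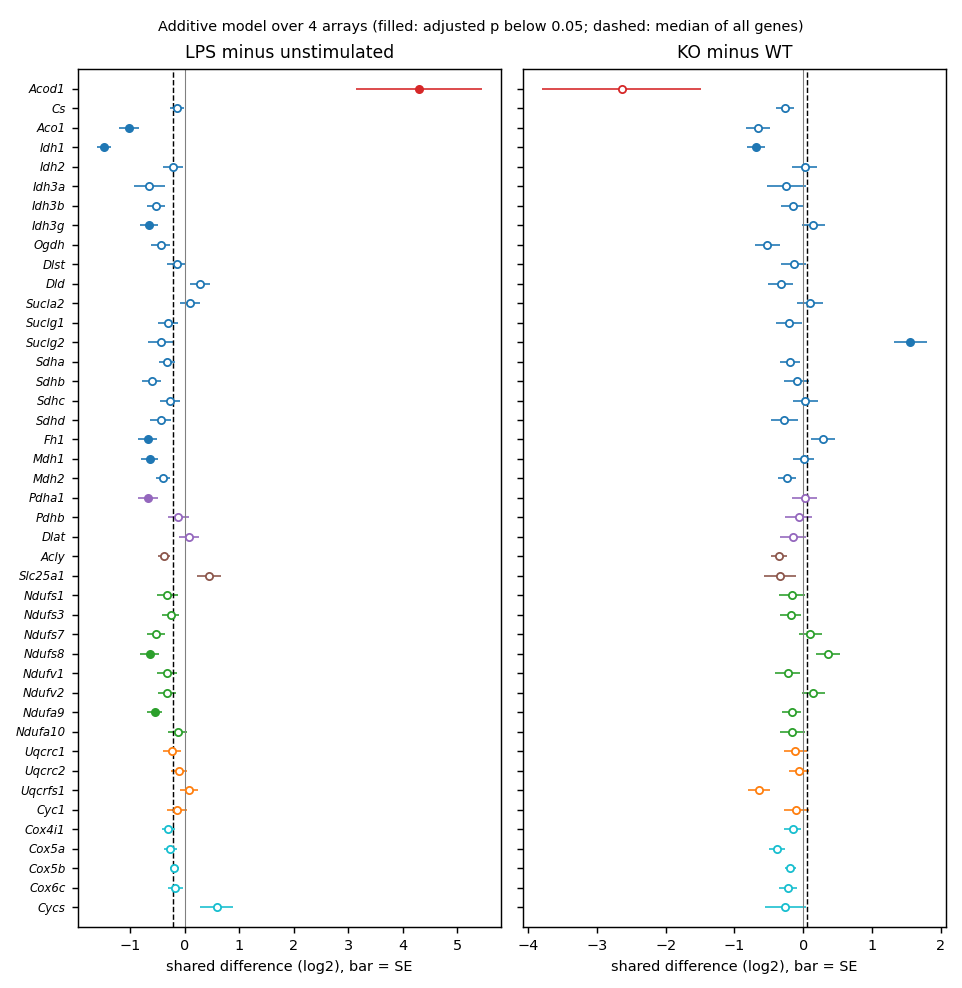
Shared difference (log2, horizontal axis, bars are standard errors) of 43 members for LPS minus unstimulated (left) and Jmjd3-/- (KO) minus WT (right), by limma's additive model over 4 arrays. Filled points passed the adjusted threshold, the dashed line is the median of all genes, and colours stand for roles. Acod1 has the widest bars, Idh1 and Aco1 the lowest LPS values, and Suclg2 the highest KO minus WT value.

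Among the 20 citrate cycle members 5 fell with LPS, none rose, and 15 did not pass. Over all genes 18.8% fell and 11.2% rose. At an unadjusted p below 0.05 there were 8 lower and still 0 higher, while 4221 of all 9385 genes passed that mark in either direction. The 5 were Idh1, Aco1, Fh1, Idh3g and Mdh1. Idh1, the cytosolic NADP-dependent isocitrate dehydrogenase gene, read 10.79 in LPS-treated and 12.40 in unstimulated Jmjd3-/- cells, against 11.61 in LPS-treated and 12.96 in unstimulated WT cells. Both LPS arrays lay below both unstimulated arrays, with a shared difference of -1.48 ± 0.13 (SE; limma, BH adjusted p = 0.00493, both genotypes lower). Aco1, the cytosolic aconitase gene whose product also acts as an iron regulatory protein, read 7.15 in LPS-treated and 8.16 in unstimulated Jmjd3-/- cells, against 7.79 and 8.84 in LPS-treated and unstimulated WT cells. It too was lower on both LPS arrays, by -1.02 ± 0.18 (SE; limma, BH adjusted p = 0.0190, both genotypes lower). Idh1 and Aco1 were 1.26 and 0.80 below the median of all genes, and each kept its call under 8 of 9 alternatives. The exception for both was the fit without the genotype term. Idh1 has only probe sets of class _s_at, which is open to cross-hybridisation, so no alternative read it outside that class.

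Smaller decreases were found in Fh1, the fumarase gene (-0.68), Idh3g, the gamma subunit gene of the NAD-dependent isocitrate dehydrogenase (-0.66), and Mdh1, the cytosolic malate dehydrogenase gene (-0.65). Their adjusted p-values (limma, BH) were 0.0454, 0.0429 and 0.0352, and all 3 were lower in both genotypes. After centring none of the 3 passed, and after quantile normalisation Mdh1 alone did. Mdh1 also had probe sets under the floor, and its mean over all its probe sets gave a shared difference of -0.28 that did not pass (adjusted p = 0.241).

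Other steps of the cycle showed LPS differences that did not pass. The beta subunit gene Idh3b differed by -0.52 and Idh2, the mitochondrial NADP-dependent enzyme gene, by -0.22. Of the succinate dehydrogenase genes, Sdha differed by -0.32, Sdhb by -0.61, Sdhc by -0.27 and Sdhd by -0.45. All 4 subunits were thus below 0, and Sdhb was closest to the threshold (limma, BH adjusted p = 0.0589). In Jmjd3-/- and WT cells the second probe sets gave -0.60 and -0.62 for Sdha, -0.35 and -0.92 for Sdhd, and -0.01 and -0.07 for Sdhc. The citrate synthase gene Cs differed by -0.14 and the mitochondrial malate dehydrogenase gene Mdh2 by -0.40. In Jmjd3-/- and WT cells the second Cs probe set gave 0.04 and -0.18, and the third gave 0.30 and 0.60. Of the oxoglutarate dehydrogenase complex, Ogdh differed by -0.45, Dlst by -0.15 and Dld, whose product is shared with pyruvate dehydrogenase, by 0.28. Ogdh passed under 1 of 9 alternatives, and its shared difference over them ran from -0.73 to -0.32. Second probe sets gave -0.88 and -1.14 for Ogdh, and -0.39 and -0.81 for Dlst, in Jmjd3-/- and WT cells. The succinyl-CoA ligase genes Sucla2, Suclg1 and Suclg2 differed by 0.09, -0.31 and -0.44. On the brightest probe sets Dld and Sucla2 were the only cycle members above 0, under the deposited values and both scalings. Over the alternatives the shared difference of Cs ran from -0.21 to 0.08.

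Among the genes that feed the cycle from pyruvate, Pdha1, the alpha subunit gene of pyruvate dehydrogenase, fell by 0.67 (limma, BH adjusted p = 0.0496, both genotypes lower). It kept its call under 1 of 9 alternatives and is therefore at the edge of the threshold. Pdhb differed by -0.12 and Dlat by 0.07, so the other 2 subunit genes measured here lay near 0. Pcx, the pyruvate carboxylase gene, was below the floor on every array, at 3.81 and 4.68 in LPS-treated and unstimulated Jmjd3-/- cells and 5.56 and 4.64 in LPS-treated and unstimulated WT cells.

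Citrate leaves mitochondria through the carrier encoded by Slc25a1 and is split by the product of Acly. Neither gene passed with LPS in the deposited values. Acly differed by -0.38 (limma, BH adjusted p = 0.0584) and Slc25a1 by 0.44. Acly passed under 2 of 9 alternatives, quantile normalisation and robust variance, with adjusted p-values over all 9 from 0.0494 to 0.961. Acly rested on a probe set of the class marked as open to cross-hybridisation, and the mean over its 6 probe sets, 3 of them with a mean under the floor, gave 0.01. Slc25a1, close to the floor, read 6.59 in LPS-treated and 6.08 in unstimulated Jmjd3-/- cells, against 6.86 in LPS-treated and 6.48 in unstimulated WT cells. It was higher on the LPS array in both genotypes.

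All 8 complex I subunit genes lay below 0 with LPS, where 63.9% of all genes lay, and 2 of them fell, against 18.8% of all genes. Complex I passes electrons from NADH to ubiquinone. Ndufs8, which encodes an iron-sulphur subunit, fell by 0.64 and Ndufa9, an accessory subunit gene, by 0.56 (limma, BH adjusted p = 0.0492 and 0.0435, each lower in either genotype). Ndufs8 read 9.93 in LPS-treated and 10.66 in unstimulated Jmjd3-/- cells, against 9.66 and 10.21 in LPS-treated and unstimulated WT cells. Ndufa9 read 10.74 in LPS-treated and 11.25 in unstimulated Jmjd3-/- cells, against 10.86 and 11.47 in LPS-treated and unstimulated WT cells. For both genes the LPS arrays lay below the unstimulated arrays without overlap. The other 6 differed by -0.53 (Ndufs7) to -0.14 (Ndufa10), and the median of the 8 was 0.11 below that of all genes. No complex I member passed after centring. Ndufs8 kept its call under 2 of 9 alternatives and Ndufa9 under 5 of 9.

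Complex III hands electrons to cytochrome c, and complex IV hands them to oxygen. None of the 4 complex III genes and none of the 5 genes of complex IV and cytochrome c passed with LPS in limma. At an unadjusted p below 0.05 the count was also 0 in both groups, against 4221 of all 9385 genes. The cytochrome bc1 genes Uqcrc1, Uqcrc2 and Cyc1 differed by -0.24, -0.11 and -0.15, and Uqcrfs1, the Rieske iron-sulphur protein gene, by 0.08. The cytochrome c oxidase genes Cox4i1, Cox5a, Cox5b and Cox6c differed by -0.31, -0.27, -0.20 and -0.17. The group medians were -0.13 and -0.20, or 0.09 and 0.03 above the median of all genes, and after quantile normalisation they were 0.03 and 0.16 below it.

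Cycs was the member, beside Acod1, whose LPS difference varied most by genotype. It read 11.71 in LPS-treated and 10.53 in unstimulated Jmjd3-/- cells, against 11.38 in LPS-treated and 11.39 in unstimulated WT cells. Its LPS difference was 1.17 in Jmjd3-/- and -0.01 in WT cells, a gap of 1.18, and the low array was that of unstimulated Jmjd3-/- cells. The other 2 bright Cycs probe sets gave gaps of 0.55 and 1.41. Cytochrome c has processed copies in the mouse genome, which these probe sets may share. Idh3a, the alpha subunit gene of the NAD-dependent isocitrate dehydrogenase, read 7.86 in LPS-treated and 8.04 in unstimulated Jmjd3-/- cells, against 7.63 in LPS-treated and 8.76 in unstimulated WT cells. Its LPS difference was -0.18 in Jmjd3-/- and -1.13 in WT cells, and on this probe set unstimulated WT was the array farthest from the others. The other 2 Idh3a probe sets with a mean above the floor gave gaps of 1.16 and 1.56, against 0.95 on the brightest. On those 2 the array apart was LPS-treated WT, at 5.61 and 5.13, so the probe sets differ in which WT array stands out.

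**Figure D3:**
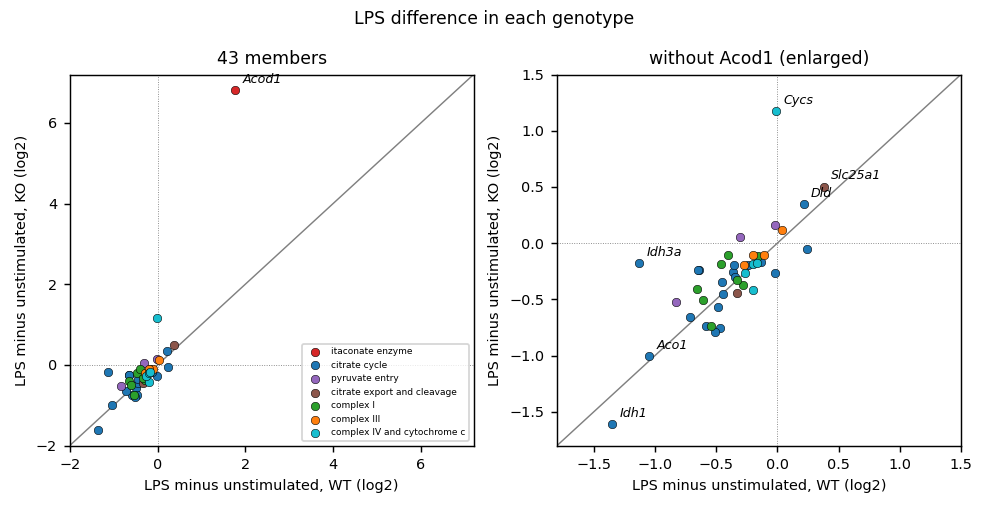
LPS minus unstimulated difference (log2) of 43 members in Jmjd3-/- (KO, vertical axis) against WT cells (horizontal axis), with the line of equal differences, on the full range (left) and without Acod1 (right). Acod1 (6.81 in KO, 1.77 in WT) and Cycs (1.17 in KO, -0.01 in WT) lie farthest above the line, and Idh1 lies lowest.

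Single-array differences of 2-fold or more were counted without a test. In Jmjd3-/- cells 2 of 43 members, Acod1 and Cycs, were 2-fold or more higher with LPS, against 11.0% of all genes, and 2, Idh1 and Aco1, were lower, against 15.5%. In WT cells 1 member, Acod1, was higher, against 9.86% of all genes, and 3, Idh1, Aco1 and Idh3a, were lower, against 14.3%. These counts describe single arrays, and most members lay within 2-fold in either genotype. For the gap between the LPS differences, 2 of 43 members were 2-fold or more higher in Jmjd3-/- (Acod1 and Cycs), against 5.19% of all genes, and none was lower, against 4.73%. The other 41 tested members had gaps from -0.29 to 0.95.

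Between genotypes, across both states, 1 member of 43 rose in Jmjd3-/- cells, against 6.39% of all genes, 1 fell, against 3.12%, and 41 did not pass. Suclg2, which encodes the GTP-specific beta subunit of succinyl-CoA ligase, read 7.26 in LPS-treated and 7.50 in unstimulated Jmjd3-/- cells, against 5.50 in LPS-treated and 6.14 in unstimulated WT cells. The Jmjd3-/- arrays lay above the WT arrays without overlap, and the shared difference was 1.56 ± 0.24 (SE; limma, BH adjusted p = 0.0238, both states higher). Its WT reading with LPS was under the floor, so the size rests partly on a background reading. Its second probe set, dimmer, gave 1.60 with LPS and 1.38 unstimulated, and the call was kept under 7 of the 8 alternatives in which it was tested. The ATP-specific partner Sucla2 and the shared alpha subunit gene Suclg1 differed by 0.09 and -0.21 and did not pass. Idh1 fell by 0.69 in Jmjd3-/- cells (limma, BH adjusted p = 0.0384, both states lower), a call kept under 3 of 9 alternatives.

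Acod1 itself did not pass between genotypes, with a shared difference of -2.64 ± 1.16 (SE; limma, BH adjusted p = 0.253, both states lower). The additive model gives both states the same genotype difference, whereas the measured ones were -0.12 with LPS and -5.16 unstimulated. Uqcrfs1 differed by -0.64 and Aco1 by -0.66 (limma, BH adjusted p = 0.0834 and 0.105), each lower on both Jmjd3-/- arrays than on the matched WT array. Ogdh differed by -0.52, Cox5a by -0.38 and Ndufs8 by 0.36, and none of these passed. The median over the members was -0.16, against 0.05 over all genes. Below 0 lay 32 of 43 members, against 44.9% of all genes. After quantile normalisation the median was -0.18, against -0.04 over all genes.

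With LPS, Suclg2 was the 1 member 2-fold or more higher in Jmjd3-/- cells, against 9.76% of all genes, and no member was lower, against 5.65%. Unstimulated, Suclg2 was again the 1 member higher, against 9.54% of all genes, and Acod1 the 1 member lower, against 5.74%. Of 9 macrophage markers Fcgr1 and Itgam passed between genotypes, 1 higher and 1 lower, against 6.39% higher and 3.12% lower of all genes. Markers of other cells differed between the same arrays. Of 11 measured granulocyte markers 11 reached the floor on each Jmjd3-/- array, against 6 in LPS-treated and 3 in unstimulated WT cells, and the defining genes Ngp, Mpo and Elane were below it in WT. Mmp8, of the same list, went the other way, at 7.14 and 8.71 in LPS-treated and unstimulated Jmjd3-/- cells, against 10.55 and 11.14 in LPS-treated and unstimulated WT cells. The summed level of that list was log2 15.2 in LPS-treated and 15.2 in unstimulated Jmjd3-/- cells, against 12.2 and 11.8 in LPS-treated and unstimulated WT cells. Of 12 stromal markers 12 reached the floor on each Jmjd3-/- array, against 6 and 5 in LPS-treated and unstimulated WT cells, with Col3a1 below it in WT. Their summed level was log2 15.02 and 15.28 in LPS-treated and unstimulated Jmjd3-/- cells, against 10.16 and 9.93 in LPS-treated and unstimulated WT cells. Of 7 measured T, B and NK cell markers none reached the floor in Jmjd3-/- cells and 2, Cd3e and Cd3d, did on both WT arrays. Of 7 dendritic cell markers at most 2 reached it on any array. The part of these cells in the genotype differences was not tested.

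The rest of the pathway was read from 6 further lists of 109 genes, of which 100 had a single-gene probe set and 93 passed the floor. With LPS 9 of the 93 rose (9.68%, against 11.2% of all genes) and 8 fell (8.60%, against 18.8%). Of 25 other complex I genes tested none rose and 2 fell, Ndufb10 (-0.68) and Ndufb11 (-0.52). Below 0 lay 23 of the 25, against 63.9% of all genes in the deposited values, and 22 after centring. Of 12 other complex III and IV genes 1 fell, Cox7a2l (-0.87), which encodes a factor of supercomplex assembly. Of 15 ATP synthase genes none passed in limma, and 5 were lower at an unadjusted p below 0.05. Over all genes 4221 of 9385 passed that mark in either direction. All 15 ATP synthase genes lay below 0 (14 after centring), between -0.49 and -0.11, against 63.9% of all genes in the deposited values. The ATP synthase median of -0.26 was 0.04 below that of all genes, and 0.25 below it after quantile normalisation.

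**Figure D4:**
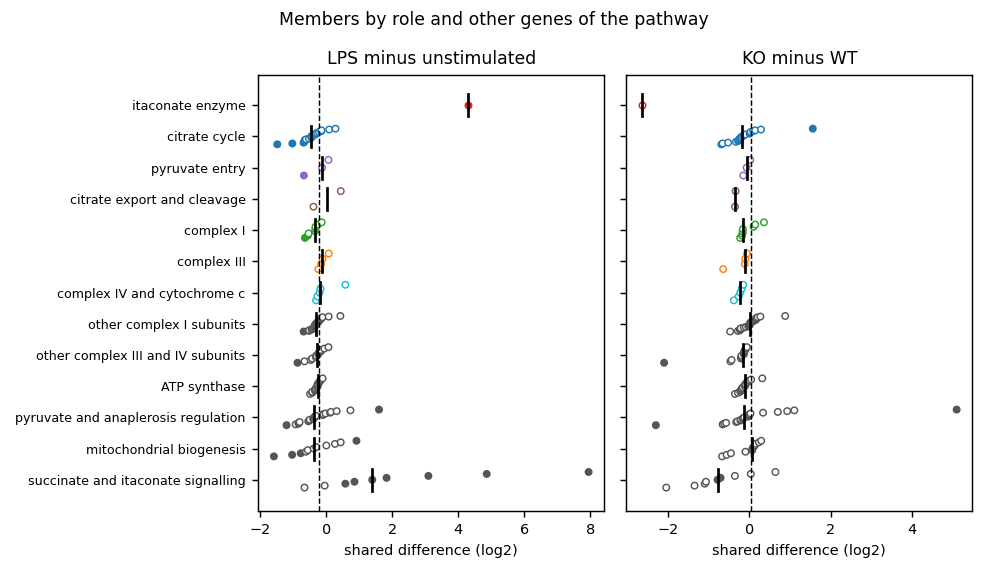
Shared difference (log2, horizontal axis) of each gene in the members' role groups (coloured) and in 6 other pathway lists (grey), for LPS minus unstimulated (left) and Jmjd3-/- (KO) minus WT (right). Filled points passed the adjusted threshold, short bars are list medians and the dashed line is the median of all genes. Respiratory chain groups cluster near the dashed line, while the signalling list lies above it with LPS.

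Among 21 tested genes of pyruvate and anaplerosis regulation, Slc25a12, the mitochondrial aspartate-glutamate carrier gene, rose with LPS by 1.60. Acss2 and Got1 fell by 1.20 and 0.83. Of this list 4.76% rose and 9.52% fell, against 11.2% and 18.8% of all genes. Acss2 makes cytosolic acetyl-CoA from acetate, and Got1 is the cytosolic aspartate aminotransferase gene. Slc25a12 read 9.85 in LPS-treated and 7.96 in unstimulated Jmjd3-/- cells, against 9.73 in LPS-treated and 8.41 in unstimulated WT cells, so both LPS arrays lay above both unstimulated arrays. Of 11 tested genes of mitochondrial biogenesis 1 rose, Gabpa (0.92), which is 9.09%, against 11.2% of all genes. In the same list 3 fell (27.3%, against 18.8%). These were Twnk, the mitochondrial DNA helicase gene (-1.58), Tfb2m, a mitochondrial transcription factor gene (-1.03), and Pprc1, a coactivator gene (-0.77). Twnk read 6.75 in LPS-treated and 8.33 in unstimulated Jmjd3-/- cells, against 6.62 in LPS-treated and 8.20 in unstimulated WT cells. Its LPS difference was alike in both genotypes, at -1.59 in Jmjd3-/- and -1.58 in WT cells.

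In the list of succinate and itaconate signalling LPS raised 7 of 9 tested genes (77.8%, against 11.2% of all genes). None fell, against 18.8% of all genes, and 2 did not pass. Il1b rose by 4.86 and Nfkbiz, an NF-kB regulator gene, by 3.10. Il6 entered the fit only through its LPS arrays, and against the floor it was at least 84.5-fold higher with LPS. The genes that did not pass were Nfe2l2 (-0.04), which encodes the antioxidant factor NRF2, and Hmox1 (-0.66), a known target of that factor, which was named after its value was seen. This list was chosen with earlier results of these arrays known, so its direction is not independent evidence.

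Between genotypes 1 of the 93 pathway genes rose in Jmjd3-/- cells (1.08%, against 6.39% of all genes) and 4 fell (4.30%, against 3.12%). Pdk4, a kinase gene whose product inhibits pyruvate dehydrogenase, read 9.05 in LPS-treated and 10.10 in unstimulated Jmjd3-/- cells, against 4.50 in LPS-treated and 4.45 in unstimulated WT cells. It was below the floor in WT cells and entered the fit only through the Jmjd3-/- arrays, so its call rests on a background reading. Against the floor it was at least 11.9-fold higher in Jmjd3-/- cells. Acss2 read 7.39 in LPS-treated and 8.43 in unstimulated Jmjd3-/- cells, against 9.53 in LPS-treated and 10.89 in unstimulated WT cells, a shared difference of -2.30. Cox6a2, a cytochrome c oxidase subunit gene known from heart and muscle, fell by 2.09, with both Jmjd3-/- arrays near the floor. Hif1a, the hypoxia-inducible factor gene whose protein is stabilised by succinate, fell by 0.71 in RNA level, and Nfe2l2 by 0.78. Most of the stromal and granulocyte markers given above were higher on the same Jmjd3-/- arrays, as Pdk4 was, while the other 4 genes were lower there. The part of those cells was not tested.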

How the data were processed

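Expression was measured on Affymetrix arrays from total RNA (Trizol) amplified with the NuGEN Ovation system, per the labels' protocols. The deposited values are log2 intensities made by the authors with RMA, per the submitters' processing notes. The sources used here do not state its version or which arrays shared the run. Of 45101 probe sets 34945 named 1 gene, and 34741 of these matched RefSeq (GRCm38.p6) by gene identifier. The brightest probe set stood for a gene. Of the members' brightest probe sets 6 were of class _x_at and 3 of class _s_at, which are open to cross-hybridisation. Over 26 members with several bright probe sets, the median standard deviation between them was 0.08 to 0.14 for the 5 differences.

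Computation used limma 3.58.1 (R 4.3.3), with an intensity trend and Benjamini-Hochberg adjustment over the genes tested, and Python 3.11.15. The fit was tested on simulated data with 200 genes changed. Noise was drawn from the fitted spread, and no difference between the LPS responses was added to it. Estimates were unbiased there, which this setting ensures, and even 2-fold changes were seldom recovered. The criterion of this test was set after results of earlier draws were seen. The share of false calls averaged above the nominal threshold there. More genes were called in the measured data, 1054 higher and 1769 lower with LPS, so the simulated recovery and false share do not carry over. A gene that did not pass may still differ, and calls just under the threshold are the least secure. All 44 members could be named, with Acod1 in every comparison, and from each other list those past the threshold, up to the 3 largest in each direction. Members, lists and tests were chosen with earlier results of these data known. Alternatives covered the probe set rule, floor, scaling, variance model and terms. Precision is limited by 1 array in each group.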

Additional observations from a re-analysis of the deposited data

Results flagged for a closer look

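Idh3a and Cycs were picked out because their genotype difference had opposite signs in the 2 states, each beyond the median SD between probe sets of a gene (0.14). For Idh3a, Jmjd3-/- minus WT was 0.23 with LPS and -0.72 unstimulated. Its other 2 bright probe sets gave 0.97 and 1.14 with LPS and -0.19 and -0.42 unstimulated, so the signs were alike and the sizes were not. For Cycs it was 0.33 with LPS and -0.85 unstimulated, and its other 2 bright probe sets gave 0.17 and 0.39 with LPS and -0.39 and -1.02 unstimulated. Each value is a difference between 2 single arrays, and the difference between the states was not tested.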

How the results depend on the processing

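No paired analysis was possible because each group has 1 array and the labels number no replicates, so no replicate could be left out either. None of the members' called differences changed sign under these alternatives. For the shared LPS effect, 1 member rose and 8 fell. The count that rose was 0 with the mean of all probe sets, with the brightest probe set outside classes _x_at and _s_at, with a floor of log2 8, after quantile normalisation, without the intensity trend, with robust variance and without the genotype term. The count that fell was 5 with the mean of probe sets, without a floor and after quantile normalisation, 2 after centring and without the trend, and 0 without the genotype term. Over all genes 1054 rose and 1769 fell. The floor of log2 8, which tests fewer genes, left 1166 that fell, and the fit without the genotype term gave 183 and 84.

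For the shared genotype effect, 1 member rose and 1 fell. The count that fell was 0 with the mean of probe sets, outside classes _x_at and _s_at, with the floor of log2 8, after quantile normalisation, without the trend and without the LPS term. Idh1, the member that fell, has only _s_at probe sets and was read from the same one under the setting outside those classes. The count that rose was 0 with the floor of log2 8, which leaves Suclg2 untested, and without the LPS term. Over all genes 600 rose and 293 fell, against 341 and 189 with the mean of probe sets, 298 and 163 with the floor of log2 8, and 100 and 11 without the LPS term.

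The counts past 2-fold are those of single arrays. With the mean of probe sets, 1 member was higher and 1 lower with LPS in Jmjd3-/- cells, 1 was lower in WT cells, and 1 had the larger LPS difference in Jmjd3-/- cells. After quantile normalisation 1 member was lower with LPS in each genotype, and after centring 1 was lower in Jmjd3-/- cells. With 64 added to the linear values 1 was lower in each genotype, and none was higher in Jmjd3-/- than WT in either state, a count that was 0 also with the floor of log2 8. Which direction held more genes over the whole array depended on the setting. With LPS 1006 genes were higher and 1415 lower in Jmjd3-/- cells, but 1147 and 1077 after quantile normalisation and 794 and 745 with 64 added. In WT cells 851 were higher and 1233 lower, but 969 and 916 after quantile normalisation. Over all genes, 1415 were lower with LPS in Jmjd3-/- cells (783 with the floor of log2 8, 745 with 64 added) and 1233 in WT cells (788 with the mean of probe sets, 696 and 649). In Jmjd3-/- against WT, 863 were higher unstimulated (557 with the mean, 421 with the floor, 521 with 64 added). With LPS 842 were higher (517, 382 and 494), and 488 were lower (305 with the floor, 319 with 64 added). The gap between LPS differences was 2-fold lower in Jmjd3-/- for 444 genes (209 with the floor, 175 with 64 added) and higher for 487 (262 with 64 added). The cause of these shifts was not tested, apart from the floor, which tests fewer genes.

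Precision is limited by 1 array in each group and 1 residual degree of freedom. Signals near log2 6, such as those of Suclg2, Slc25a1 and unstimulated Jmjd3-/- Acod1, are close to background, and folds against them are uncertain.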
